A study of Danio rerio with 6 samples.

Results

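Genes of DNA replication and mitosis were examined in early zebrafish embryonic cells that expressed β-catCA, a constitutively active β-catenin, either among normal neighbours or throughout the embryo. A row of the deposited table was taken as a member if its symbol, in any letter case, began with mcm (*mcmbp* left out), orc, cenp, aurk, plk, bub, kif, ccna, ccnb, ccnd or ccne and a further letter or digit, or was *pcna*, *cdk1*, *cdk2*, *cdc20*, *cdc6*, *cdt1*, *gmnn*, *mki67*, *top2a*, *birc5a* or *birc5b*. The rule used no measured value other than that a row was not listed at 0 in all libraries. It gave 97 members of 14132 genes, and 22 further genes with such symbols were listed at 0 in all 6 libraries. Because the rule goes by the start of the symbol, it also took in genes that act elsewhere, such as *KIF5B* and *KIF3A*, motors of intracellular and ciliary transport, and *KIFBP* and *mcm3ap*, which are named after the proteins they bind.

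The study compared 3 groups of 2 libraries, all of strain AB and labelled as early embryonic cells at 9 h post fertilization, whereas the methods give an earlier hour. ‘Mosaic’ cells were the GFP+ cells of embryos injected with a plasmid in which the heat-shock-inducible hsp70 promoter drove GFP and β-catCA. ‘Ubiquitous’ cells were the GFP+ cells of a transgenic line, HS:GFP-2A-β-catCA, in which heat shock switches on the same protein in all cells. ‘Uninjected’ cells were sorted in a comparable way from embryos without plasmid, and whether these embryos were heat-shocked is not stated. Both other groups thus also differ from ‘Uninjected’ in the plasmid or transgene, in GFP and possibly in heat shock. These cannot be told apart from β-catCA. Each group came from 40 pooled embryos, and nothing says that the 2 libraries of a group were separate sorts, so p-values measure the spread between these libraries, which may be technical. In the bulk RNA of sorted cells, fewer cells in a given phase of the cell cycle and less RNA per cell cannot be told apart.

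Before a cell divides, the origin recognition complex (ORC) and CDC6 load the ring-shaped MCM helicase onto DNA, and the ring is later fired to unwind the double strand while PCNA, a sliding clamp, holds the polymerases on the template. Cyclins and cyclin-dependent kinases time these steps, and aurora and polo-like kinases, the kinetochore at the centromere and kinesin motors then build the spindle, separate the chromosomes and split the cell. Zebrafish embryos begin with fast cleavage cycles run on maternal stores, and at gastrulation, the stage studied here, the cycles have lengthened and zygotic transcripts have joined the maternal ones.

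The deposited values are regularized logarithms (rlog, log2 scale), which adjust each count to the depth of its library and shrink it to the average of that gene, with the strongest shrinkage at low counts. The whole-number counts of transcript molecules behind them were inferred by inverting this transformation, and per-library levels are given below as CPM (inferred counts per 1000000 counts of the library) with 95% Wilson intervals, which cover counting error only. Libraries were made by CEL-Seq2, which tags the 3′ end of each transcript, so a level does not scale with gene length, and levels are compared between libraries and not between genes. Totals ran from 34540 counts in the second ‘Ubiquitous’ library to 489311 in the second ‘Uninjected’ library, a 14.2-fold range. The first ‘Uninjected’ library was also shallow, with 58352 counts, and for several members with few counts in either of them the difference is also given without one or both. The fit without both holds the 4 deepest libraries alone, so ‘Ubiquitous’ and ‘Uninjected’ have 1 library each, the spread comes from the 2 ‘Mosaic’ libraries only, and each lone library is assumed to vary like them. All 7 marker genes of early embryonic cells were counted, with a summed level of 1593 and 2040 CPM in ‘Mosaic’, 3435 and 2519 CPM in ‘Ubiquitous’, and 2948 and 2475 CPM in ‘Uninjected’.

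The 97 members together took between 1.64% and 1.96% of the counts of each library. They made up 1.76% and 1.70% of counts in the ‘Mosaic’ libraries, 1.96% and 1.64% in the ‘Ubiquitous’ libraries, and 1.76% and 1.94% in the ‘Uninjected’ libraries. The ‘Ubiquitous’ shares were both the highest and the lowest of the 6, and the lowest was that of the shallowest library, with a Wilson interval of 1.51 to 1.78%. The ‘Mosaic’ intervals were 1.70 to 1.81% and 1.65 to 1.75%. They lay below those of the first ‘Ubiquitous’ (1.91 to 2.01%) and second ‘Uninjected’ library (1.91 to 1.98%). The intervals of both shallow libraries overlapped the ‘Mosaic’ ones. Group means were compared for the 49 members with a mean rlog of at least 2, which were 11 of 20 origin licensing genes, both replication fork genes, 7 of 15 cyclins and cyclin-dependent kinases, 6 of 10 aurora, polo-like and checkpoint genes, 4 of 14 centromere genes, 16 of 32 kinesin-named genes, and 3 of 4 chromosome and mitotic exit genes. Roles were assigned by symbol, so the origin licensing genes include *mcm3ap*. The other 48 members had between 1 and 40 counts over all 6 libraries and were not tested. They include *birc5b*, with 1 count, and the cyclins *CCNB2* with 32 and *ccnb3* with 37 counts.

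**Figure D1:**
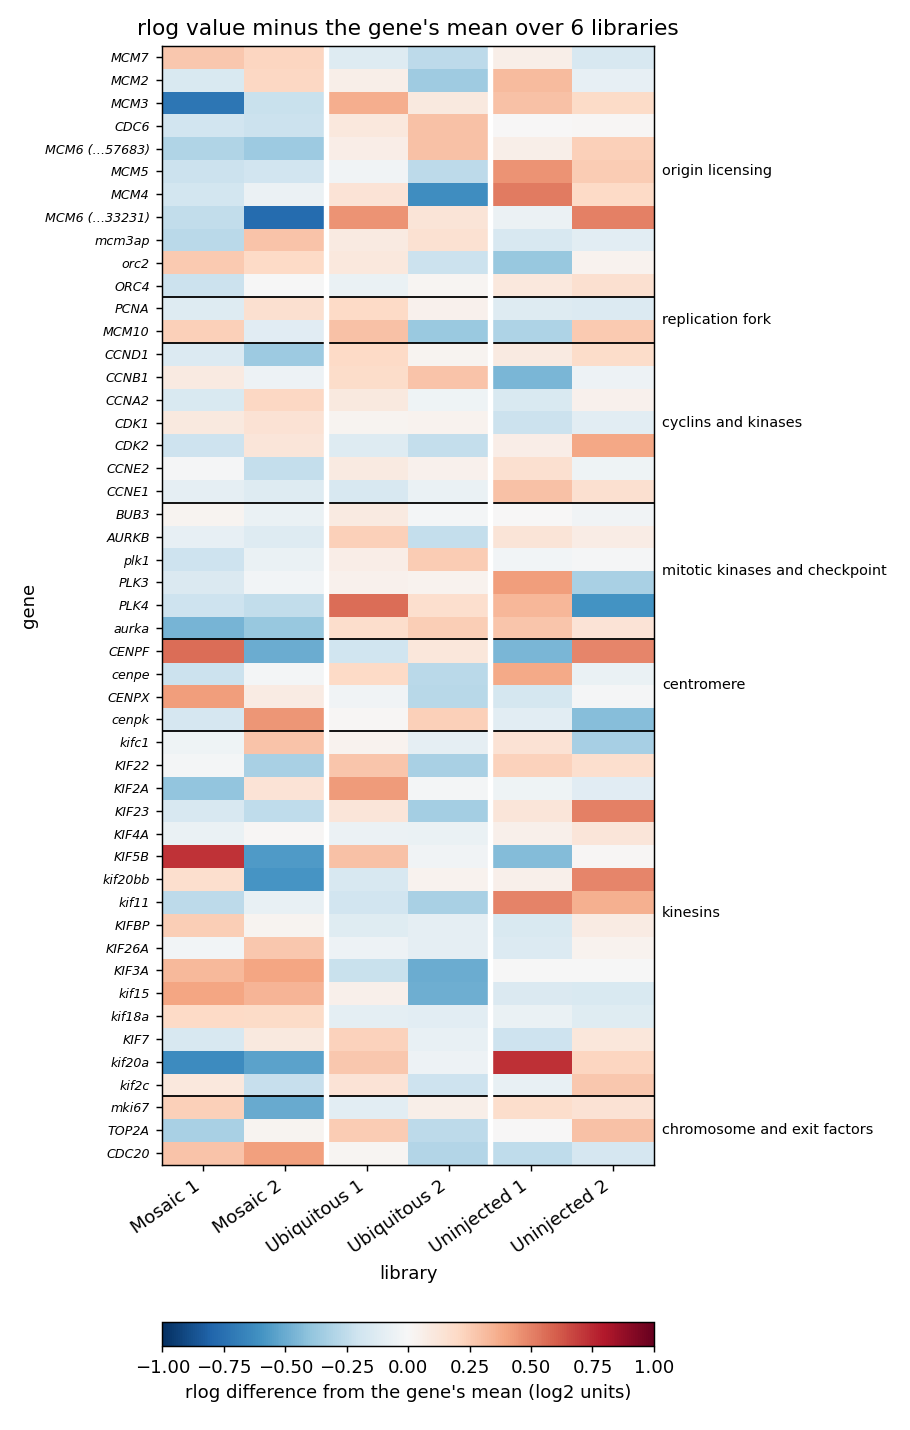
Heat map of the 49 members tested (rows, grouped by role) in the 6 libraries (columns), coloured by the rlog value minus the gene's mean over the libraries, in log2 units. Rows that are blue in both ‘Mosaic’ libraries include *kif20a*, *aurka* and most MCM helicase genes, and rows that are red in both include *MCM7*, *CDC20* and *kif15*.

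Between ‘Mosaic’ and ‘Uninjected’ cells, which asks what differs in β-catCA cells placed among normal neighbours, 1 of the 49 members passed the threshold (limma, Benjamini-Hochberg adjusted p under 0.1 over 3905 genes). This was *kif20a*, which fell, and it is 2.04% of the members tested, against 1.38% of all genes tested and 0.845% for lower calls alone. At an unadjusted p under 0.05 there were 10 members, 20.4% of those tested against 11.3% of all genes. Of these, 8 were lower in ‘Mosaic’, or 16.3% against 5.61% of all genes, namely *kif20a*, *aurka*, *MCM3*, both *MCM6* rows, *MCM5*, *kif11* and *KIF23*. The other 2, *CDC20* and *kif15*, were higher, or 4.08% against 5.66%. *kif20a* and *aurka* passed the filter on low values only through the other groups, as their ‘Mosaic’ means were below 2. Both ‘Mosaic’ values lay below both ‘Uninjected’ values for 17 members, 34.7% against 19.9% of all genes, and above them for 9 members, 18.4% against 23.1%. The median difference in rlog was -0.11 over the members and 0.02 over all genes tested, and 29 of the 49 differences (59.2%) were below 0, as were 46.7% of all genes.

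‘Ubiquitous’ and ‘Uninjected’ cells differ in β-catCA carried by all cells and in the other respects named above. Between them no member passed the threshold in limma, against 0.487% of all genes. At an unadjusted p under 0.05 there were 4 members, 8.16% against 6.76% of all genes, of which 3 were lower (6.12% against 3.89%) and 1 higher (2.04% against 2.87%) in ‘Ubiquitous’. A likelihood-ratio test of the inferred counts with a negative binomial model also called 0 members, against 0.384% of all genes. In the comparison of ‘Mosaic’ with ‘Uninjected’ the same count test called 0 members, against 0.819%. There voom on the inferred counts called *kif20a*, with 1.66% of all genes called. ‘Ubiquitous’ values lay wholly below ‘Uninjected’ values for 11 members, 22.4% against 19.6% of all genes, and wholly above for 8, 16.3% against 13.7%. The median difference was -0.02 over the members and -0.03 over all genes, and 29 differences (59.2%) were below 0, as were 55.0% of all genes.

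‘Mosaic’ and ‘Ubiquitous’ cells both carry β-catCA, from an injected plasmid in the former and from a transgene in the latter. Between them no member passed in limma either, against 1.33% of all genes. At an unadjusted p under 0.05 there were 9 members, 18.4% against 13.0%, of which 6 were lower (12.2% against 5.51%) and 3 higher (6.12% against 7.45%) in ‘Mosaic’, and the count test called 0, against 0.359%. ‘Mosaic’ values lay wholly below ‘Ubiquitous’ values for 12 members, 24.5% against 18.5% of all genes, and wholly above for 10, 20.4% against 28.1%. The median difference was -0.06 over the members and 0.05 over all genes, and 28 differences (57.1%) were below 0, as were 43.3% of all genes. In the 4 deepest libraries alone, where ‘Ubiquitous’ and ‘Uninjected’ have a single library each and the spread is that of the ‘Mosaic’ pair, 2 members passed between ‘Mosaic’ and ‘Uninjected’ (3.64% of all genes did), 1 between ‘Ubiquitous’ and ‘Uninjected’ (1.38% of all genes), which sets 1 library against 1, and 4 between ‘Mosaic’ and ‘Ubiquitous’ (4.07% of all genes). The comparisons share libraries, so a member that stood apart in one of them could also do so in another through the same 2 libraries. Libraries of these depths were simulated from the fitted count model, with changes set in ‘Mosaic’ alone. Between ‘Mosaic’ and ‘Uninjected’ the threshold was passed by 42.0% of 81 genes with a set change of 2 (log2). It was passed by 13.9% of 101 genes with a set change of 1. Between ‘Mosaic’ and ‘Ubiquitous’ these shares were 45.7% and 7.92%. If the model holds, many changes of such sizes would not be called in either of these comparisons.

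**Figure D2:**
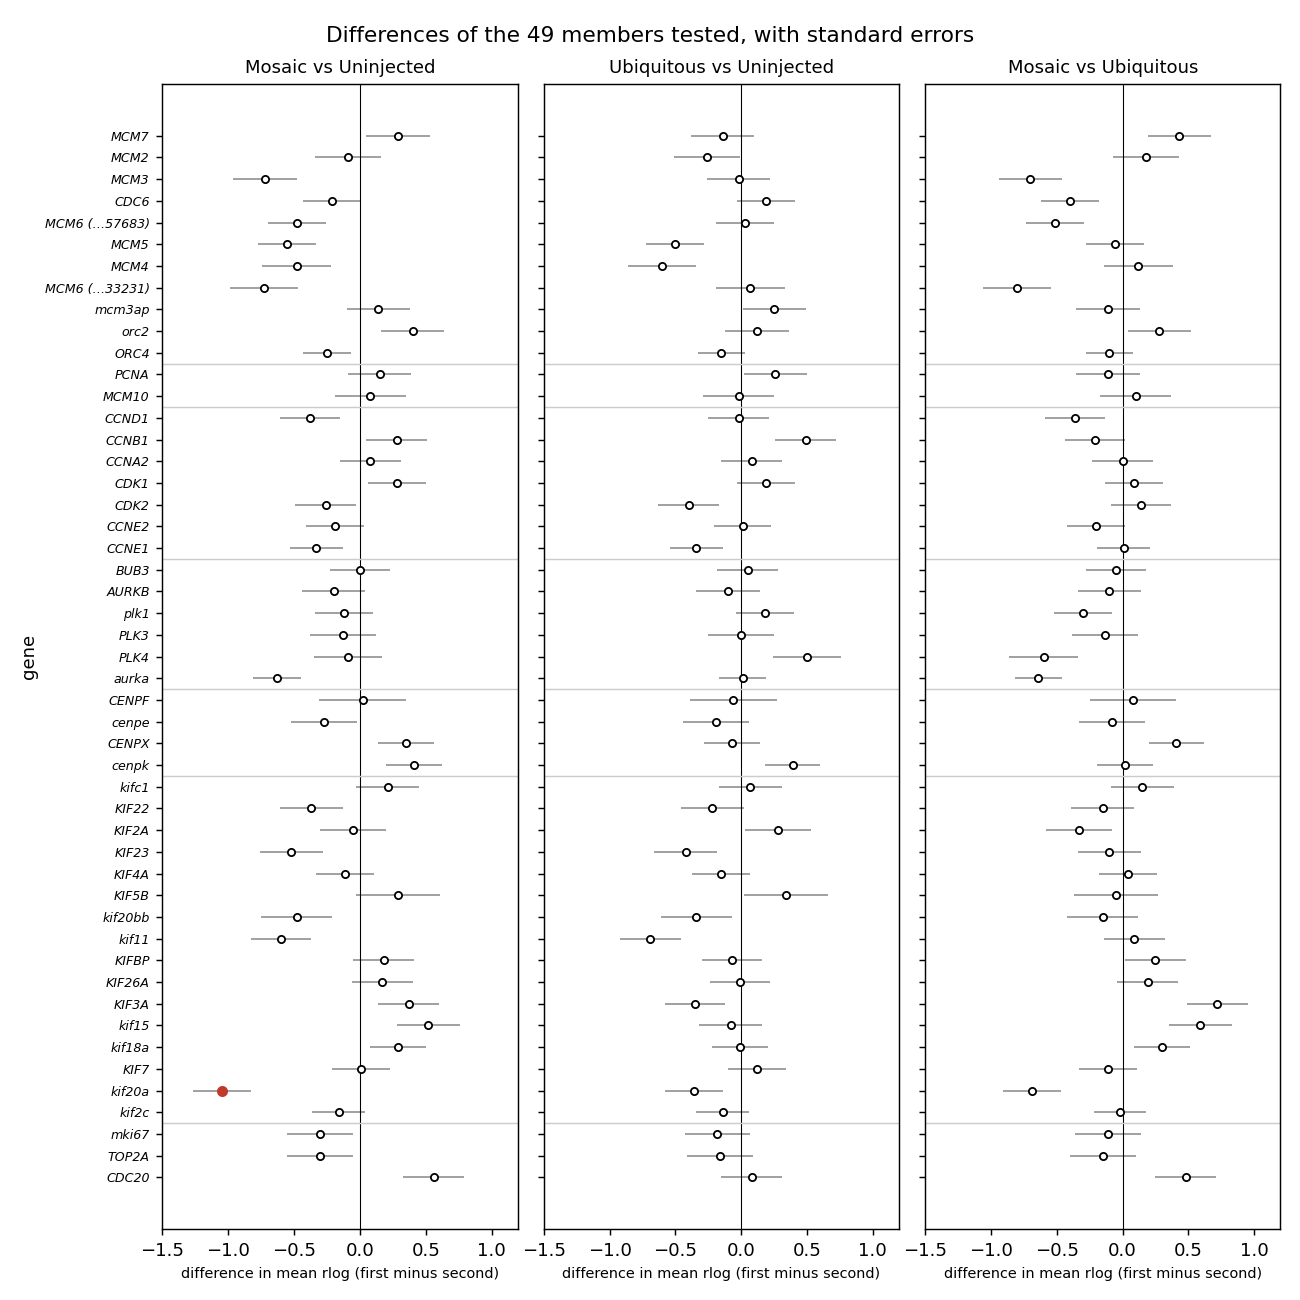
Differences in mean rlog (first group minus second, points) with their standard errors (lines) for the 49 members tested in the 3 comparisons; the filled point passed the threshold and open points did not. The filled point is *kif20a* between ‘Mosaic’ and ‘Uninjected’, at -1.05, and the other differences lie between -0.80 and 0.72.

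The member that passed, *kif20a* (ENSDARG00000044491), encodes a kinesin of the central spindle that is needed for cytokinesis, the splitting of the cell body. The ‘Mosaic’ libraries held 1 and 2 inferred counts of it, against 19 and 1 in the ‘Ubiquitous’ libraries, and 7 and 26 in the ‘Uninjected’ libraries, or 4.60 and 8.33 CPM, 55.0 and 29.0 CPM, and 120.0 and 53.1 CPM in the same order. Both ‘Mosaic’ libraries were the lowest of the 6 and overlapped neither other group, although the second ‘Ubiquitous’ library rests on a single count. Pooled over the 2 libraries, the level was 6.56 CPM (interval 2.23 to 19.3) in ‘Mosaic’, 52.6 CPM (34.1 to 81.3) in ‘Ubiquitous’ and 60.3 CPM (42.9 to 84.6) in ‘Uninjected’. The ratio of ‘Mosaic’ to ‘Uninjected’ was 0.109, with an exact 95% counting interval of 0.0214 to 0.347. Pooling weights libraries by depth. The second ‘Uninjected’ library gave 489311 of the 547663 pooled counts, and the first ‘Ubiquitous’ library 345590 of 380130. The interval leaves out the spread between libraries.

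On the rlog scale *kif20a* averaged 1.91 ± 0.06 in ‘Mosaic’, 2.61 ± 0.23 in ‘Ubiquitous’ and 2.97 ± 0.36 in ‘Uninjected’ (SD, n = 2 each). As its ‘Mosaic’ mean was below the filter value of 2, *kif20a* was tested only because of its level in the other groups. It fell by 1.05 in ‘Mosaic’ against ‘Uninjected’ (SE 0.22, limma adjusted p = 0.0172). The difference from ‘Ubiquitous’ was -0.69 and did not pass (limma adjusted p = 0.17), nor did that of ‘Ubiquitous’ from ‘Uninjected’, at -0.36 (adjusted p = 0.833). The call was lost in the count test with a negative binomial model (adjusted p = 0.165). With voom on the inferred counts, the other count test, it was kept (-2.79, voom adjusted p = 0.0513). In limma it was lost without the filter on low values (adjusted p = 0.326). It was also lost there without the first ‘Mosaic’ (-1.01), second ‘Mosaic’ (-1.1) or first ‘Uninjected’ library (-0.80). In the 4 deepest libraries alone it was kept (-0.80, limma adjusted p = 0.0813), the difference from the single ‘Ubiquitous’ library passed as well (-0.85, adjusted p = 0.0491), and that of ‘Ubiquitous’ from ‘Uninjected’ turned to 0.05.

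The 6 markers of primordial germ cells were read only as a sum. That sum was 23.0 and 12.5 CPM in ‘Mosaic’, 60.8 and 86.9 CPM in ‘Ubiquitous’, and 223 and 155 CPM in ‘Uninjected’. It rests on 5 and 3 counts in the ‘Mosaic’ libraries and on 3 counts in the second ‘Ubiquitous’ library. The ‘Mosaic’ libraries were again the lowest, and none of the 6 was at 0 in all libraries. ‘Ubiquitous’ lay below ‘Uninjected’ in this sum but overlapped it in *kif20a*. The summed level of the early embryonic markers, given above, was also lowest in both ‘Mosaic’ libraries. The 8 enveloping layer markers summed to 2500 and 1844 CPM in ‘Mosaic’, 1406 and 984 CPM in ‘Ubiquitous’, and 1594 and 3282 CPM in ‘Uninjected’, with overlap between ‘Mosaic’ and ‘Uninjected’. The part of any of these cell types in the *kif20a* result was not tested.

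Among origin licensing genes, the MCM helicase gave the members with the lowest differences after *kif20a* between ‘Mosaic’ and ‘Uninjected’. Its 6 subunits were represented by 7 rows, because 2 rows carry the symbol *MCM6*, and reads that fit both copies could have been split between them. None of the 7 passed the threshold in any comparison over all 6 libraries. Against ‘Uninjected’, 6 of the 7 differences were below 0 in ‘Mosaic’, beside 46.7% of all genes, and the subunit above 0 was *MCM7*. Against ‘Ubiquitous’, 4 of the 7 were below 0, beside 43.3% of all genes, and *MCM2*, *MCM4* and *MCM7* were above. In the 4 deepest libraries alone *MCM2* turned to 0.11 against ‘Uninjected’, which left 5 of the 7 below 0, and against the single ‘Ubiquitous’ library 6 of the 7 were below 0.

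*MCM3* had 244 and 383 CPM in the ‘Mosaic’ libraries, 671 and 521 CPM in the ‘Ubiquitous’ libraries, and 600 and 611 CPM in the ‘Uninjected’ libraries. Both ‘Mosaic’ libraries lay below the other 4. The difference in rlog was -0.72 against ‘Uninjected’ (SE 0.24, limma adjusted p = 0.247) and -0.70 against ‘Ubiquitous’ (SE 0.24, adjusted p = 0.205), and without the first ‘Mosaic’ library these were -0.47 and -0.45. ‘Ubiquitous’ differed from ‘Uninjected’ by -0.02, a value whose sign changed with the scaling. In the 4 deepest libraries alone the *MCM3* difference between ‘Mosaic’ and ‘Ubiquitous’ passed (-0.84, limma adjusted p = 0.0603).

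The *MCM6* row ENSDARG00000033231 had 87.5 and 41.6 CPM in ‘Mosaic’, 194 and 145 CPM in ‘Ubiquitous’, and 103 and 215 CPM in ‘Uninjected’. Both ‘Mosaic’ libraries were again the lowest, with 19 and 10 counts, while the first ‘Uninjected’ library rests on 6 counts. Its difference was -0.73 against ‘Uninjected’ (SE 0.26, limma adjusted p = 0.288) and -0.80 against ‘Ubiquitous’ (SE 0.26, adjusted p = 0.18). In the 4 deepest libraries alone, without the second ‘Ubiquitous’ and the first ‘Uninjected’ library, these were -1.02 (adjusted p = 0.00981) and -0.96 (0.0244) and passed the threshold, as did 3.64% and 4.07% of all genes in the same fits.

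The other *MCM6* row, ENSDARG00000057683, had 295 and 275 CPM in ‘Mosaic’, 425 and 521 CPM in ‘Ubiquitous’, and 394 and 521 CPM in ‘Uninjected’. ‘Mosaic’ was below both other groups without overlap in this row as well. The differences were -0.48 against ‘Uninjected’ and -0.51 against ‘Ubiquitous’ (limma adjusted p = 0.429 and 0.341), and neither passed.

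In *MCM4* and *MCM5* the ‘Uninjected’ libraries stood above both groups that carried β-catCA. *MCM5* had 170 and 171 CPM in ‘Mosaic’, 211 and 145 CPM in ‘Ubiquitous’, and 326 and 292 CPM in ‘Uninjected’. *MCM4* had 161 and 179 CPM in ‘Mosaic’, 229 and 57.9 CPM in ‘Ubiquitous’, and 326 and 256 CPM in ‘Uninjected’. ‘Mosaic’ and ‘Ubiquitous’ overlapped each other in both genes. For *MCM5* the difference from ‘Uninjected’ was -0.55 in ‘Mosaic’ and -0.50 in ‘Ubiquitous’ (limma adjusted p = 0.336 and 0.7), and for *MCM4* it was -0.48 and -0.60 (adjusted p = 0.503 and 0.668). The low ‘Ubiquitous’ value of *MCM4* comes from 2 counts in the shallowest library, and without that library the *MCM4* difference was -0.22, and -0.06 without both shallow libraries. Without both, that of *MCM5* was -0.28 in ‘Ubiquitous’.

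*MCM2*, with 617 and 820 CPM in ‘Mosaic’, 755 and 492 CPM in ‘Ubiquitous’, and 891 and 707 CPM in ‘Uninjected’, overlapped between all groups. *MCM7* had 3917 and 3663 CPM in ‘Mosaic’, 2920 and 2519 CPM in ‘Ubiquitous’, and 3170 and 2992 CPM in ‘Uninjected’. Both ‘Mosaic’ libraries of *MCM7* were above the other 4. Its difference was 0.29 against ‘Uninjected’ (SE 0.24, limma adjusted p = 0.713) and 0.43 against ‘Ubiquitous’ (SE 0.24, adjusted p = 0.459), neither past the threshold.

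**Figure D3:**
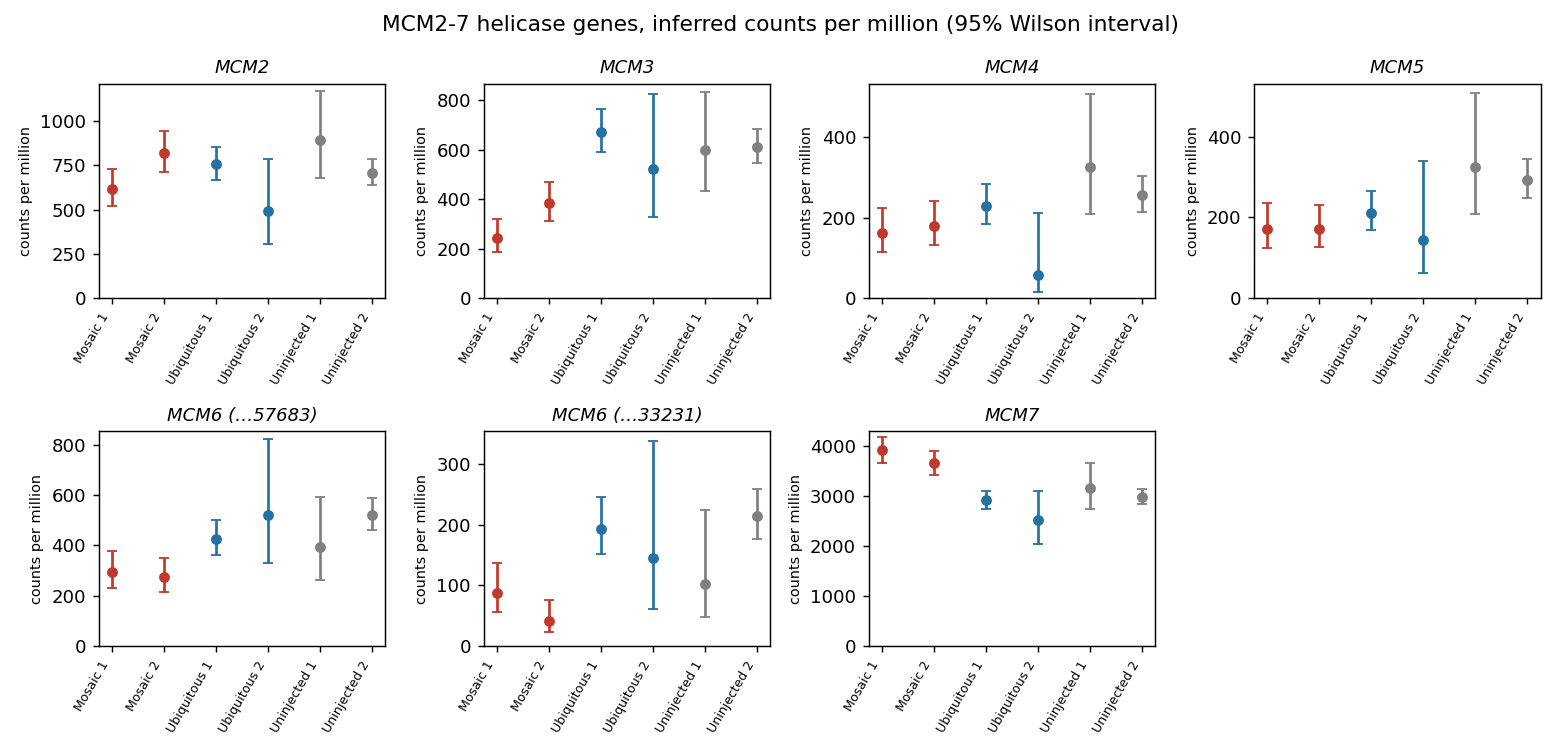
Inferred CPM of the 7 rows of the MCM2 to MCM7 helicase in each library (points) with 95% Wilson counting intervals (bars), on axes that start at 0. Both ‘Mosaic’ points are the lowest for *MCM3* and both *MCM6* rows, and the highest for *MCM7*, at 3917 and 3663 CPM; intervals are widest in the second ‘Ubiquitous’ and first ‘Uninjected’ libraries.

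*CDC6*, which loads the helicase, had 345 and 329 CPM in ‘Mosaic’, 460 and 550 CPM in ‘Ubiquitous’, and 394 and 450 CPM in ‘Uninjected’. On the rlog scale the 3 groups did not overlap, with ‘Mosaic’ lowest and ‘Ubiquitous’ highest. The differences from ‘Uninjected’ were -0.21 in ‘Mosaic’ and 0.19 in ‘Ubiquitous’, and that between ‘Mosaic’ and ‘Ubiquitous’ was -0.40 (limma adjusted p = 0.448). The ORC members tested were *orc2*, at 0.40 in ‘Mosaic’ against ‘Uninjected’, and *ORC4*, at -0.25, and neither passed (adjusted p = 0.552 and 0.653). *CDT1*, the loading factor that works with CDC6, had 31 counts over all libraries and its inhibitor *GMNN* had 40, and both were under the filter on low values.

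At the replication fork, *PCNA* had 1956 and 2444 CPM in ‘Mosaic’, 2639 and 2258 CPM in ‘Ubiquitous’, and 1868 and 2109 CPM in ‘Uninjected’. ‘Mosaic’ overlapped both other groups, and ‘Ubiquitous’ lay above ‘Uninjected’ on the rlog scale by 0.26 (SE 0.24, limma adjusted p = 0.938). *MCM10*, which helps activate the loaded helicase, had 0 counts in the second ‘Ubiquitous’ library, where a count of 0 allows up to 3 counts or 86.9 CPM (Wilson upper limit 111 CPM), and differed by 0.08 between ‘Mosaic’ and ‘Uninjected’, a value whose sign changed with voom.

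None of the 7 cyclins and cyclin-dependent kinases tested passed the threshold in any comparison. *CCND1*, a G1 cyclin and a target of Wnt/β-catenin signalling in mammalian cells, had 1671 and 1370 CPM in ‘Mosaic’, 2269 and 1911 CPM in ‘Ubiquitous’, and 1937 and 2350 CPM in ‘Uninjected’. Its ‘Mosaic’ libraries were the lowest of the 6, and the other groups overlapped. The difference was -0.38 against ‘Uninjected’ and -0.36 against ‘Ubiquitous’ (limma adjusted p = 0.578 and 0.529). For *CCND1* in ‘Ubiquitous’ against ‘Uninjected’ it was -0.02, with a sign that changed under median centring.

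*CCNB1*, the cyclin that drives entry into mitosis, had 502 and 433 CPM in ‘Mosaic’, 559 and 608 CPM in ‘Ubiquitous’, and 274 and 478 CPM in ‘Uninjected’. The ‘Ubiquitous’ libraries were the highest, at 0.49 above ‘Uninjected’ (SE 0.23, limma adjusted p = 0.717), and the first ‘Uninjected’ library was the lowest, on 16 counts. Without that library the *CCNB1* difference was 0.29, and without both shallow libraries 0.24. Its partner *CDK1* had 92.1 and 95.8 CPM in ‘Mosaic’, 86.8 and 86.9 CPM in ‘Ubiquitous’, and 51.4 and 77.7 CPM in ‘Uninjected’. On the rlog scale the *CDK1* groups followed one another without overlap in that order, by 0.28 for ‘Mosaic’ and 0.19 for ‘Ubiquitous’ against ‘Uninjected’, each about the size of its standard error of 0.22.

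*CCNE1*, which acts at the start of S phase, had 32.2 and 29.1 CPM in ‘Mosaic’, 28.9 and 29.0 CPM in ‘Ubiquitous’, and 68.6 and 53.1 CPM in ‘Uninjected’. The ‘Uninjected’ libraries were above the other 4, with differences of -0.33 in ‘Mosaic’ and -0.34 in ‘Ubiquitous’ (limma adjusted p = 0.562 and 0.819). The first ‘Uninjected’ library held 4 counts of *CCNE1* and the second ‘Ubiquitous’ library 1 count. Without both of these libraries the differences were -0.27 and -0.32. *CCNE2* differed by -0.19 between ‘Mosaic’ and ‘Uninjected’. *CDK2*, the kinase that cyclin E binds, was 0.40 lower in the mean of ‘Ubiquitous’ than of ‘Uninjected’ (difference -0.40, limma adjusted p = 0.819) without overlap between these groups. The second ‘Ubiquitous’ library held 1 count of *CDK2* and the first ‘Uninjected’ library 4 counts. Without both of them the *CDK2* difference was -0.51. *CCNA2*, the cyclin of S and G2 phases, overlapped between all groups, at 345 and 470 CPM in ‘Mosaic’, 446 and 376 CPM in ‘Ubiquitous’, and 326 and 452 CPM in ‘Uninjected’.

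All 6 aurora, polo-like and checkpoint genes tested had a negative or zero difference between ‘Mosaic’ and both other groups, and none passed. Over all genes tested, 46.7% of the ‘Mosaic’ differences were below 0 against ‘Uninjected’ and 43.3% against ‘Ubiquitous’. Some of the 6 lay near 0, such as *PLK4* at -0.09 against ‘Uninjected’ and *BUB3* at -0.05 against ‘Ubiquitous’. The sign for *PLK4*, *PLK3* and *BUB3* against ‘Uninjected’ and for *BUB3* against ‘Ubiquitous’ changed under at least 1 other scaling. Leaving a library out also changed the sign in these cases. Without the first ‘Uninjected’ library *PLK4* and *PLK3* were at 0.37 and 0.24 against ‘Uninjected’. Without the first ‘Ubiquitous’ library *AURKB* was at 0.14 against ‘Ubiquitous’. The signs of *aurka* and *plk1* held in all alternatives. *aurka*, the kinase of the spindle poles, had 1 and 2 counts in the ‘Mosaic’ libraries, 13 and 2 in the ‘Ubiquitous’ libraries, and 3 and 18 in the ‘Uninjected’ libraries, the equivalent of 4.60 and 8.33 CPM, 37.6 and 57.9 CPM, and 51.4 and 36.8 CPM in that order. As with *kif20a*, both ‘Mosaic’ libraries were the lowest, and the other groups overlapped. Pooled, *aurka* in ‘Mosaic’ stood at 0.171 of the ‘Uninjected’ level (exact counting interval 0.0327 to 0.573) and at 0.166 of the ‘Ubiquitous’ level (0.0308 to 0.587). As for *kif20a*, pooling gives most weight to the deeper library of a group, and the intervals leave out the spread between libraries.

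On the rlog scale *aurka* averaged 1.65 ± 0.06 in ‘Mosaic’, 2.29 ± 0.05 in ‘Ubiquitous’ and 2.28 ± 0.10 in ‘Uninjected’ (SD, n = 2 each). Like *kif20a*, it passed the filter value of 2 only through the groups other than ‘Mosaic’. The difference was -0.63 against ‘Uninjected’ (SE 0.18, limma adjusted p = 0.13) and -0.64 against ‘Ubiquitous’ (SE 0.18, adjusted p = 0.122), just outside the threshold. Centring each library on its median took the second of these past it (-0.68, limma adjusted p = 0.0832), as for 1.64% of all genes.

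*AURKB*, the kinase of the chromosomal passenger complex, had 654 and 616 CPM in ‘Mosaic’, 885 and 550 CPM in ‘Ubiquitous’, and 754 and 805 CPM in ‘Uninjected’. ‘Mosaic’ lay below ‘Uninjected’ by 0.20 in the mean (difference -0.20, SE 0.24) and overlapped ‘Ubiquitous’. *plk1*, which acts from the entry into mitosis to cytokinesis, had 134 and 154 CPM in ‘Mosaic’, 185 and 232 CPM in ‘Ubiquitous’, and 154 and 180 CPM in ‘Uninjected’. On the rlog scale the *plk1* groups did not overlap, with ‘Mosaic’ lowest, at -0.12 against ‘Uninjected’ and -0.30 against ‘Ubiquitous’ (limma adjusted p = 0.878 and 0.578).

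*PLK4*, the kinase that starts the duplication of centrioles, had 23.0 and 20.8 CPM in ‘Mosaic’, 81.0 and 57.9 CPM in ‘Ubiquitous’, and 68.6 and 10.2 CPM in ‘Uninjected’. The 2 ‘Uninjected’ libraries stood far apart, on 4 and 5 counts, and enclosed the ‘Mosaic’ values, while ‘Ubiquitous’ lay above ‘Mosaic’. The difference was 0.50 for ‘Ubiquitous’ against ‘Uninjected’ (SE 0.26, limma adjusted p = 0.763) and -0.60 for ‘Mosaic’ against ‘Ubiquitous’ (SE 0.26, adjusted p = 0.336). In the 4 deepest libraries alone, without the second ‘Ubiquitous’ and the first ‘Uninjected’ library, *PLK4* was at 1.17 (limma adjusted p = 0.0155, with 1.38% of all genes called) and -0.79 (0.0802, with 4.07% called). The first of these sets a single library with 28 counts against one with 5, with a spread taken from ‘Mosaic’. *BUB3*, which binds unattached kinetochores as part of the spindle checkpoint, varied little, with 2182 and 1977 CPM in ‘Mosaic’, 2341 and 2085 CPM in ‘Ubiquitous’, and 2039 and 2240 CPM in ‘Uninjected’. The checkpoint genes *bub1*, *bub1ba* and *bub1bb* had 3, 11 and 4 counts over all libraries and were not tested.

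Of the 16 kinesin-named genes tested, 8 had a difference below 0 between ‘Mosaic’ and ‘Uninjected’, beside 46.7% of all genes, and *kif20a* alone passed. *kif11*, the motor that pushes the spindle poles apart, had 55.2 and 70.8 CPM in ‘Mosaic’, 63.7 and 29.0 CPM in ‘Ubiquitous’, and 154 and 131 CPM in ‘Uninjected’. Its ‘Uninjected’ libraries were above the other 4, and ‘Mosaic’ and ‘Ubiquitous’ overlapped. The difference was -0.60 in ‘Mosaic’ (SE 0.23, limma adjusted p = 0.303) and -0.69 in ‘Ubiquitous’ (SE 0.23, adjusted p = 0.426), where the second ‘Ubiquitous’ library has 1 count. Without both shallow libraries they were -0.53 and -0.55. *KIF23*, a motor of the central spindle like *kif20a*, was chosen after its values were seen and had 101 and 87.4 CPM in ‘Mosaic’, 142 and 57.9 CPM in ‘Ubiquitous’, and 137 and 221 CPM in ‘Uninjected’. It differed by -0.52 between ‘Mosaic’ and ‘Uninjected’ without overlap (limma adjusted p = 0.429). On the rlog scale ‘Ubiquitous’ was also below ‘Uninjected’ in *KIF23* without overlap (-0.42, limma adjusted p = 0.815). Unlike *kif20a*, *KIF23* overlapped between ‘Mosaic’ and ‘Ubiquitous’ (difference -0.10). This overlap comes from 2 counts of *KIF23* in the second ‘Ubiquitous’ library. Without that library the differences were -0.33 for ‘Mosaic’ against ‘Ubiquitous’ and -0.19 for ‘Ubiquitous’ against ‘Uninjected’. Without the first ‘Ubiquitous’ library they were 0.13 and -0.65.

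For *kif15* and *KIF3A* both ‘Mosaic’ libraries were the highest of the 6. *kif15*, a spindle motor that shares work with the product of *kif11* in mammalian cells, had 120 and 108 CPM in ‘Mosaic’, 78.1 and 0 CPM in ‘Ubiquitous’, and 51.4 and 63.4 CPM in ‘Uninjected’. Both ‘Mosaic’ values of *kif15* lay above the other 4, but the 0 allows up to 3 counts or 86.9 CPM in that library, and its Wilson upper limit of 111 CPM is above the second ‘Mosaic’ value. The difference was 0.52 against ‘Uninjected’ and 0.59 against ‘Ubiquitous’ (SE 0.24 each, limma adjusted p = 0.42 and 0.296). Without the second ‘Ubiquitous’ library the *kif15* difference from ‘Ubiquitous’ was 0.33. *KIF3A*, whose product drives transport within cilia, had 111 and 117 CPM in ‘Mosaic’, 55.0 and 0 CPM in ‘Ubiquitous’, and 68.6 and 77.7 CPM in ‘Uninjected’. *KIF3A* was 0.72 higher in the mean of ‘Mosaic’ than of ‘Ubiquitous’ (SE 0.23, adjusted p = 0.17), and its groups did not overlap on the rlog scale. Without the second ‘Ubiquitous’ library, where the 0 has the same limits, it was 0.58.

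**Figure D4:**
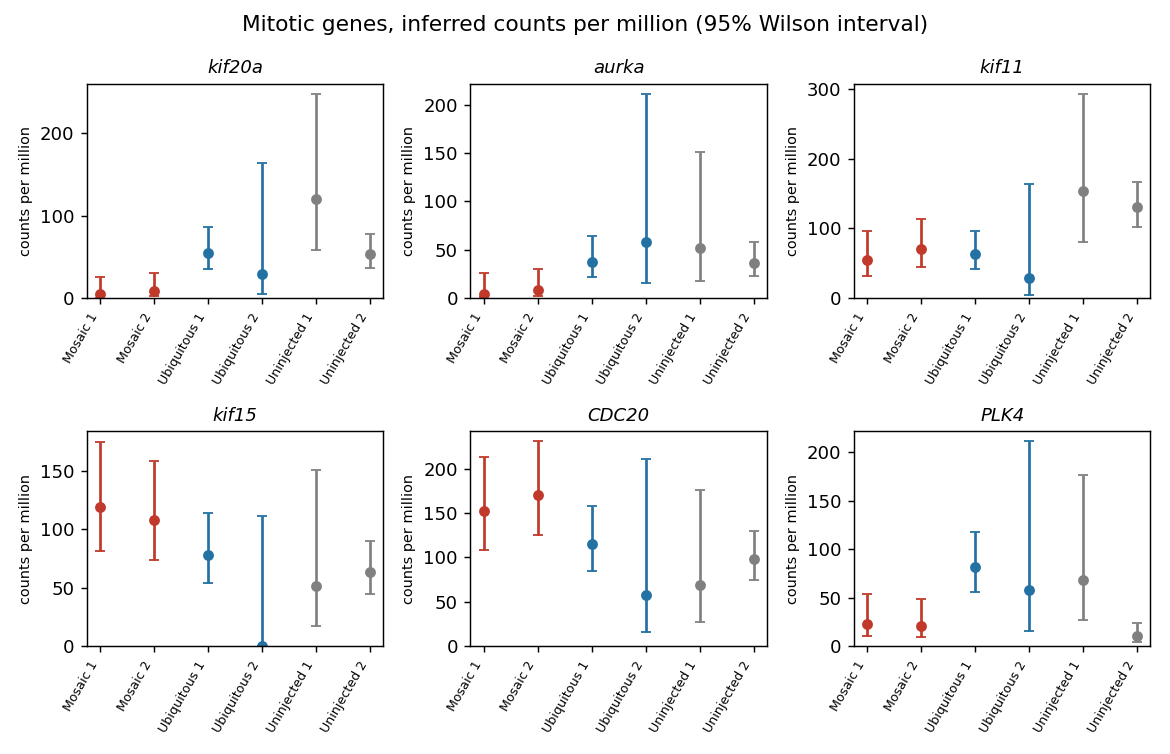
Inferred CPM of 6 mitotic genes in each library (points) with 95% Wilson counting intervals (bars), on axes that start at 0. The ‘Mosaic’ points are the lowest for *kif20a* and *aurka*, both at 4.60 and 8.33 CPM, and the highest for *kif15* and *CDC20*, while for *kif11* the ‘Uninjected’ points are the highest.

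At the centromere, *cenpk*, a subunit of the inner kinetochore, had 18.4 and 58.3 CPM in ‘Mosaic’, 28.9 and 57.9 CPM in ‘Ubiquitous’, and 17.1 and 10.2 CPM in ‘Uninjected’. In CPM both groups with β-catCA lay above ‘Uninjected’, while on the rlog scale ‘Mosaic’ overlapped ‘Uninjected’ (1.96 in the first ‘Mosaic’ against 2.02 in the first ‘Uninjected’ library). The ‘Uninjected’ mean rlog of *cenpk* was 1.86, so it passed the filter on low values only through the groups with β-catCA. The differences from ‘Uninjected’ were 0.41 in ‘Mosaic’ and 0.39 in ‘Ubiquitous’ (SE 0.21 each, limma adjusted p = 0.491 and 0.788), on 1 and 5 counts in the ‘Uninjected’ libraries. With a library left out the *cenpk* difference ran from 0.10 (without the second ‘Mosaic’) to 0.71 (without the first ‘Mosaic’) in ‘Mosaic’, and from 0.23 (without the second ‘Uninjected’) to 0.55 (without the first ‘Uninjected’) in ‘Ubiquitous’. The other 3 centromere genes tested lay between -0.27 and 0.35 in ‘Mosaic’ against ‘Uninjected’.

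Among chromosome and mitotic exit genes, *CDC20*, the activator that lets the anaphase-promoting complex end metaphase, had 152 and 171 CPM in ‘Mosaic’, 116 and 57.9 CPM in ‘Ubiquitous’, and 68.6 and 98.1 CPM in ‘Uninjected’. Both ‘Mosaic’ libraries were the highest of the 6, and the other groups overlapped. The difference was 0.56 against ‘Uninjected’ (SE 0.23, limma adjusted p = 0.339), the largest positive difference of a member in that comparison, and 0.48 against ‘Ubiquitous’ (SE 0.23, adjusted p = 0.379). *TOP2A*, the topoisomerase that untangles sister chromatids, had 180 and 250 CPM in ‘Mosaic’, 324 and 174 CPM in ‘Ubiquitous’, and 240 and 356 CPM in ‘Uninjected’. *mki67*, which coats mitotic chromosomes and is widely used as a marker of cycling cells, had 842 and 433 CPM in ‘Mosaic’, 648 and 724 CPM in ‘Ubiquitous’, and 771 and 848 CPM in ‘Uninjected’. In both genes the ‘Mosaic’ and ‘Uninjected’ libraries overlapped, and each differed by -0.30 (SE 0.25 each, adjusted p = 0.706 for *TOP2A* and 0.713 for *mki67*).

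Of 71 other listed genes of replication and mitosis that the rule does not take in (helicase cofactors, polymerases, clamp loaders, nucleotide synthesis, kinetochore, cohesin, condensin and cytokinesis genes), 62 symbols were found and 45 rows were tested. None passed in limma against ‘Uninjected’, in ‘Mosaic’ or in ‘Ubiquitous’, where 1.38% and 0.487% of all genes did. At an unadjusted p under 0.05 there were 8 in ‘Mosaic’ and 4 in ‘Ubiquitous’, or 17.8% against 11.3% of all genes and 8.89% against 6.76%. Of these, 7 and 3 were lower than in ‘Uninjected’, or 15.6% against 5.61% of all genes and 6.67% against 3.89%. Between ‘Mosaic’ and ‘Ubiquitous’ there were 8 at an unadjusted p under 0.05, 17.8% against 13.0% of all genes. Of these, 7 were lower in ‘Mosaic’, or 15.6% against 5.51% of all genes. In that comparison 1 passed, 2.22% against 1.33% of all genes, *hmmr*, which encodes a spindle-associated protein. It had 12 and 5 counts in the ‘Mosaic’ libraries, 59 and 7 in the ‘Ubiquitous’ libraries, and 3 and 51 in the ‘Uninjected’ libraries. *hmmr* fell by 1.19 in ‘Mosaic’ against ‘Ubiquitous’ (SE 0.25, limma adjusted p = 0.034), and the differences from ‘Uninjected’, -0.52 in ‘Mosaic’ and 0.67 in ‘Ubiquitous’, did not pass. The *hmmr* call was lost without either ‘Mosaic’ library. It was also lost without the filter on low values, where 0 genes passed in that comparison. Against ‘Uninjected’, the median difference over the 45 genes was -0.12 in ‘Mosaic’ (0.02 over all genes) and -0.06 in ‘Ubiquitous’ (-0.03 over all genes). For ‘Mosaic’ against ‘Ubiquitous’ the median was -0.14 (0.05 over all genes).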

How the data were processed

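RNA-Seq libraries were made by CEL-Seq2 from sorted cells of 3 groups, with 2 libraries each. The authors aligned reads to GRCz10 with Bowtie2 (version 2.3.1), counted molecules for each gene in HTSeq (0.6.1) after removing duplicate molecular identifiers, and deposited regularized logarithms on the log2 scale. Reads were not processed again, and strandedness of the counting is not given in the sources used here.

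Differences between groups were fitted to these deposited log2 values in limma (version 3.58.1, R 4.3.3; two-sided, variance trend on the mean, all 6 libraries). Genes had to reach a mean rlog of 2, which left 3905, and p-values were adjusted over these by the Benjamini-Hochberg method, with a threshold of 0.1. A fold change on this scale understates the change of low genes. Counts were inferred in Python (version 3.11.15; numpy 2.4.6, scipy 1.17.1) by inverting the transformation, and gave the deposited values within 0.01 for 99.81% of 14132 genes. In data simulated from the same fitted model, with the refit started close to the true settings, 100% of 11060 genes were recovered. That checks the inversion itself and not whether the model suits the deposited values. No promoter or protein sequence was used here.

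The members, gene lists and tests were chosen with earlier results of these data known. Members are named with values if they passed the threshold, were among the 3 largest differences in either direction of a comparison, or are core replication and mitosis genes, and other pathway genes if they passed. Values are also given, outside this rule, for *orc2*, *ORC4*, *MCM10*, *CCNB2*, *ccnb3* and *KIF23*. Marker lists were those of early embryonic cells, the enveloping layer and primordial germ cells. An Ensembl symbol table gave names to 3822 of the 3905 genes tested. Alternatives were other filters, quantile normalization, median centring, other variance priors, the lot number as a block, a fit of just the 4 libraries of a comparison, 2 count tests (voom, and a likelihood-ratio test with a negative binomial model and the fitted dispersion trend), a threshold of 0.05 and each library left out. The 4 deepest libraries alone and crossed lot numbers were added after the data were examined.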

Additional observations from a re-analysis of the deposited data

How the results depend on the processing

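With 2 libraries per group and a 14.2-fold range of depth, single members with few counts limit what can be called. Where a library was left out, the remaining one of its group was assumed to vary like the other groups. Between ‘Mosaic’ and ‘Uninjected’, 1 member was called, against 0 without the filter, 0 at a mean rlog of at least 4 (where *kif20a* was not tested), 0 in the negative binomial test, 2 in the 4 deepest libraries alone, and 0 to 1 with a library left out; no filter adds genes to the adjustment, and the cause of the other shifts was not tested. Between ‘Ubiquitous’ and ‘Uninjected’, 0 were called, against 1 (*PLK4*) in the 4 deepest libraries, and 0 with each library left out. Between ‘Mosaic’ and ‘Ubiquitous’, 0 were called, against 1 (*aurka*) after median centring and 4 (*PLK4*, *MCM3*, the *MCM6* row ENSDARG00000033231 and *kif20a*) in the 4 deepest libraries, and 0 with each library left out. The members' median difference between ‘Mosaic’ and ‘Uninjected’ was -0.02 without the filter and -0.19 with voom, and -0.13 to -0.10 with a library left out. Between ‘Ubiquitous’ and ‘Uninjected’ it was -0.09 to 0.06 with a library left out, above 0 without the second ‘Ubiquitous’ library. Between ‘Mosaic’ and ‘Ubiquitous’ it was -0.18 with voom, -0.13 in the 4 deepest libraries, and -0.13 to 0.06 with a library left out, above 0 without the first ‘Ubiquitous’ library. Over all genes the median between ‘Mosaic’ and ‘Uninjected’ was -0.01 without the filter and 0.02 with voom. Between ‘Ubiquitous’ and ‘Uninjected’ the all-gene median was 0.01 without the second ‘Ubiquitous’ library. Between ‘Mosaic’ and ‘Ubiquitous’ it was 0.07 with voom, 0.02 in the 4 deepest libraries and 0.1 without the first ‘Ubiquitous’ library. The difference of *kif20a* between ‘Ubiquitous’ and ‘Uninjected’ reversed to 0.05 in the 4 deepest libraries, and its adjusted p between ‘Mosaic’ and ‘Uninjected’ ranged over the alternatives from 0.00741 to 0.326.

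Over all genes, the calls in the 3 comparisons (‘Mosaic’ and ‘Uninjected’, ‘Ubiquitous’ and ‘Uninjected’, ‘Mosaic’ and ‘Ubiquitous’) were 54, 19 and 52, against 6, 7 and 0 without the filter, 18, 5 and 24 at a mean rlog of at least 4, 142, 54 and 159 in the 4 deepest libraries, and 32, 15 and 14 in the negative binomial test; without a ‘Mosaic’ library the last comparison gave 2, and without the second ‘Ubiquitous’ library 10. Deviations of libraries with the same lot number had correlations of -0.12, -0.04 and -0.06 over 3905 genes. With 2 libraries per group of such unequal depth, these cannot show that lots share no effect. With the lot number as a replicate block 1, 0 and 0 members and 57, 23 and 50 genes were called. In that fit *kif20a* was at -1.05 between ‘Mosaic’ and ‘Uninjected’, with a limma adjusted p of 0.00949. With crossed lot numbers in ‘Mosaic’ as a block, 1, 0 and 0 members and 67, 23 and 61 genes were called.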

Other observations

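The share of helicase counts that came from *MCM7* was chosen for description after the values were seen, and it was not tested. *MCM7* made up 71.3% and 66.2% of the counts of the 7 MCM2 to MCM7 rows in the ‘Mosaic’ libraries, 54.0% and 57.2% in the ‘Ubiquitous’ libraries, and 54.6% and 53.5% in the ‘Uninjected’ libraries, so that both ‘Mosaic’ libraries were above the other 4. The ratio of *MCM7* to *MCM3* counts, which compares libraries and not the levels of the genes, was 16.1 (95% counting interval 12.2 to 21.2) and 9.57 (7.72 to 11.9) in ‘Mosaic’, 4.35 (3.77 to 5.02) and 4.83 (2.93 to 7.99) in ‘Ubiquitous’, and 5.29 (3.69 to 7.57) and 4.90 (4.32 to 5.54) in ‘Uninjected’. Between ‘Mosaic’ and ‘Uninjected’ the difference was 0.29 for *MCM7* and -0.72 for *MCM3*, so a higher ratio in ‘Mosaic’ follows from the choice of these genes. The ratio was not tested either. Its intervals in the 2 ‘Mosaic’ libraries did not overlap each other, so these libraries differed by more than the counting error shown. The 7 rows together stood at 5492 and 5532 CPM in ‘Mosaic’, 5405 and 4401 CPM in ‘Ubiquitous’, and 5810 and 5594 CPM in ‘Uninjected’. Without *MCM7* they stood at 1574 and 1869 CPM in ‘Mosaic’, 2486 and 1882 CPM in ‘Ubiquitous’, and 2639 and 2602 CPM in ‘Uninjected’.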
